A study of Mus musculus with 8 samples.

Results

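Metallothioneins and zinc transporters were examined in islets of weight-cycled and obese mice; islets are the small groups of endocrine cells in the pancreas, mostly insulin-making beta cells. The 10 genes were the metallothionein genes Mt1 and Mt2, the metal-sensing transcription factor gene Mtf1, and the zinc transporter genes Slc30a5, Slc30a7, Slc30a8, Slc30a9, Slc39a6, Slc39a7 and Slc39a14. They were found by symbol among 35596 gene rows, and each matched 1 row. They were chosen by the lower measured TPM of Mt1 and Mt2 in weight-cycled islets, so the values that compare the groups for these 10 genes are a description and carry no p-value. All mice were male C57BL/6J, an inbred laboratory strain, and their age is not given in the labels. The 4 weight-cycled libraries came from mice given a diet with 60% fat for 9 weeks, a diet with 10% fat for 9 weeks and the diet with 60% fat again for 9 weeks. The 4 obese libraries came from mice given the diet with 10% fat for 9 weeks and the diet with 60% fat for 18 weeks. Both groups thus ended on the diet with 60% fat, and the order of the diets differs together with the length of that last period. Each value is a TPM, a transcript abundance scaled by transcript length and to a fixed total per library, so levels can be compared between genes. Nothing in the labels ties the libraries to different animals, so p-values measure the spread between libraries, which may be technical.

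Zinc is stored with insulin in the granules of beta cells, where it helps insulin pack into crystals. Metallothioneins are small, cysteine-rich proteins that bind zinc and copper in the cytosol, and their genes are switched on when the factor encoded by Mtf1 senses free zinc and binds metal response elements in their promoters. Proteins of the Slc30a family mostly move zinc out of the cytosol into organelles or out of the cell, and proteins of the Slc39a family move it into the cytosol.

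The islet label was borne out by insulin transcripts, which made up 75.4% to 78.8% of TPM in weight-cycled libraries and 76.9% to 78.4% in obese libraries. Weight-cycled replicate 1 stood apart within its group, with a sum of 10 acinar markers of 6738 TPM against 2775 to 3211 TPM in the other weight-cycled libraries, and 2281 to 4230 TPM in obese libraries. It also had 8415 genes at 1 TPM or more. The other weight-cycled libraries had 7045 to 7463 such genes, and obese libraries 8072 to 8697. Most genes were lower in weight-cycled islets on this scale. The median difference of the 8127 genes with a mean of at least 1 TPM was -0.26 in log2(TPM + 1) (weight-cycled minus obese throughout), a scale that understates changes of low genes. In TPM every library has the same total, and sequencing depth is unknown. In whole islets, fewer cells of a type and less RNA per cell cannot be told apart.

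Mt1 and Mt2 were lower in every weight-cycled library than in any obese library. Mt1 (ENSMUSG00000031765.8, chromosome 8, 94179082 to 94180327, forward strand, build mm10) had 49.1, 20.9, 31.2 and 19.6 TPM in weight-cycled replicates 1 to 4, against 93.0, 84.8, 89.4 and 93.6 TPM in obese replicates 1 to 4. The highest weight-cycled library, replicate 1, still lay below the lowest obese one, replicate 2. Mt2 (ENSMUSG00000031762.7, chromosome 8, 94172664 to 94173568, forward strand) had 26.3, 9.97, 17.0 and 12.9 TPM in weight-cycled replicates 1 to 4, against 61.1, 45.8, 56.5 and 58.7 TPM in obese replicates 1 to 4. Again the groups did not overlap, and replicate 1 was the highest weight-cycled library and replicate 2 the lowest obese one.

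The mean of Mt1 was 30.2 ± 13.6 TPM in weight-cycled islets and 90.2 ± 4.08 TPM in obese islets (SD, n = 4 each), so that the weight-cycled mean was 0.335 times the obese mean. For Mt2 the means were 16.5 ± 7.11 TPM in weight-cycled islets and 55.5 ± 6.73 TPM in obese islets (SD, n = 4 each), a ratio of 0.298. The log2(TPM + 1) differences, weight-cycled minus obese, were -1.64 (SE 0.225) for Mt1 and -1.76 (SE 0.224) for Mt2. Ordered by difference, Mt2 was the 1st and Mt1 the 2nd lowest of the 8127 genes, also after median-of-ratios scaling over the tested genes and with the length trend of every library taken out. Without weight-cycled replicate 1 the differences were -1.90 for Mt1 and -2.01 for Mt2.

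The log2 ratio of Mt1 to Mt2 lay between 0.61 and 1.07 in weight-cycled libraries and between 0.61 and 0.89 in obese libraries, so Mt1 was the higher of the pair in all 8. Mt1 and Mt2 are separated by 5513 bases and share no run of 31 bases in their annotated transcripts, so reads of one would not be shared out to the other over such a run. Of the 31-base runs of Mt2, 58.1% also occur, counting either strand, in transcripts of other genes, nearly all of them in an antisense gene (Gm45774) annotated over the Mt2 gene. Whether strand was used in the counting is not given in the sources used here, so Mt2 carries that uncertainty, while 0 runs of Mt1 were shared with any other gene.

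**Figure D1:**
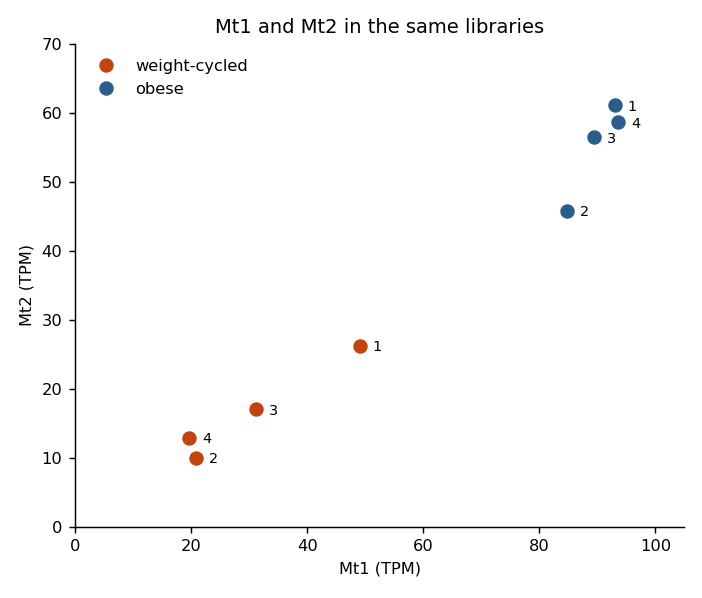
Level of Mt1 (horizontal axis, TPM) against Mt2 (vertical axis, TPM), 1 point per library with its replicate number, weight-cycled in orange and obese in blue. Weight-cycled libraries lie at or below 49.1 TPM for Mt1 and 26.3 TPM for Mt2, and obese libraries at or above 84.8 and 45.8 TPM.

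The promoters of the pair are shown because both hold the letters of the metal response element, through which the Mtf1 protein acts. The windows run from 250 bases before to 50 bases after the annotated start, 5′ to 3′ on the gene's strand, and come from RefSeq on GRCm38.p6. Capitals mark every match to the element's core, searched as TGCACNC and TGCGCNC on both strands, where N is any base.
Mt1, chr8:94178839-94179138, forward strand: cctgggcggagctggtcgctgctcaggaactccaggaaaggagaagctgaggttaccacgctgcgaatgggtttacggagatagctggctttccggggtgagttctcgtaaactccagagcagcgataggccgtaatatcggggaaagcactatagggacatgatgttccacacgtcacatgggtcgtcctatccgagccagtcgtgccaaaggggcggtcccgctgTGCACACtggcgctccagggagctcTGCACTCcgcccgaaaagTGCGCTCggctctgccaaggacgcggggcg
Mt2, chr8:94172368-94172667, forward strand: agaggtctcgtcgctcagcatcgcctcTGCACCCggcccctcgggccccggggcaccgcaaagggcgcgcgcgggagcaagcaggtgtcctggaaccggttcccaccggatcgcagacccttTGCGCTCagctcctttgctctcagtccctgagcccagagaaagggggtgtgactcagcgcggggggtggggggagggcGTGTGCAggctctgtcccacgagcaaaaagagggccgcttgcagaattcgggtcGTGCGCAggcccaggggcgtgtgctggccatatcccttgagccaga

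The Mt1 window held 3 matches and the Mt2 window 4, none of which overlapped another. Among 32851 promoter windows of the same length, 25.7% held at least 1 match, 1.97% at least 3 and 0.517% at least 4. Counted from 0 at the RefSeq start base, the 3 of Mt1 lay between -23 and 26, while the 4 of Mt2 were spread from -223 to 10. That start differs from the gene coordinates given above, as the Mt2 window ends at 94172667 and the Mt2 gene begins at 94172664. Which start islets use was not measured, so counts and positions hold for these windows only. Mt2 also held 1 match to TGACNNNGC, the core of the antioxidant response element, which 12.4% of windows hold on either strand. RefSeq windows were at hand for 7 of the 10 genes. Apart from Mt1 and Mt2, Slc30a5 held 1 match to the metal response element core, and Mtf1, Slc30a7, Slc30a9 and Slc39a7 held 0 in these windows. A match describes letters only, and no binding was measured here.

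**Figure D2:**
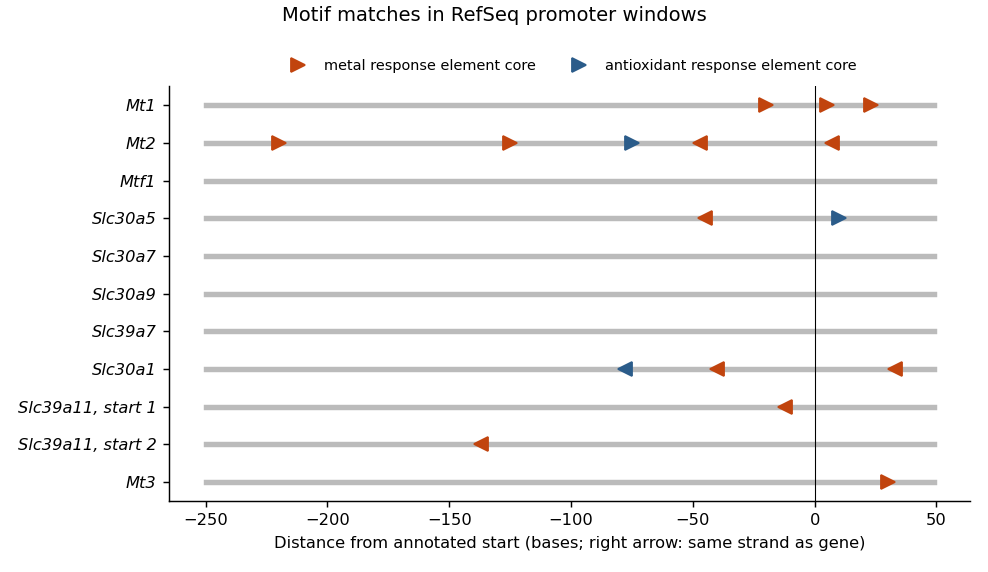
Matches to the metal response element core (orange) and the antioxidant response element core (blue) in 300-base promoter windows, by distance in bases from the annotated start; right-pointing marks lie on the gene's strand, left-pointing marks on the opposite one. Mt1 holds 3 and Mt2 holds 4 metal response element cores, and Slc30a1 holds 2.

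Mtf1 itself (ENSMUSG00000028890.13, chromosome 4, 124802104 to 124849800) overlapped between the groups. It had 3.31, 2.68, 2.48 and 3.52 TPM in weight-cycled replicates 1 to 4, against 2.70, 3.69, 2.98 and 2.87 TPM in obese replicates 1 to 4. The lowest and second highest values were both weight-cycled libraries, and the difference was -0.02 (SE 0.123), turning to between 0.22 and 0.33 under 4 of 5 other scalings. Slc30a1, the exporter gene of the cell surface and a known target of the Mtf1 protein, was too low to be tested, at 0.307 ± 0.201 TPM in weight-cycled islets and 0.590 ± 0.176 TPM in obese islets (SD, n = 4 each), with overlapping libraries.

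Slc30a8 encodes the transporter that loads zinc into insulin granules, and it had the highest level of the 10 genes. Slc30a8 (ENSMUSG00000022315.3, chromosome 15, 52295553 to 52335798) had 129, 93.0, 146 and 135 TPM in weight-cycled replicates 1 to 4, against 196, 207, 185 and 173 TPM in obese replicates 1 to 4. The groups did not overlap, with weight-cycled replicate 2 the lowest of all libraries. Means were 126 ± 23.1 TPM in weight-cycled islets and 190.4 ± 14.6 TPM in obese islets (SD, n = 4 each), a ratio of 0.661 and a difference of -0.61 (SE 0.132). Relative to insulin transcripts, Slc30a8 stood at 0.119 to 0.186 TPM per 1000 TPM of Ins1 and Ins2 in weight-cycled libraries and at 0.221 to 0.270 in obese libraries. That ratio nearly repeats the TPM of Slc30a8, because insulin held 75.4% to 78.8% of the fixed total in every library. The insulin genes themselves differed by 0.02 (Ins1) and -0.00081 (Ins2) on the log2 scale on TPM as deposited. With median-of-ratios scaling over the tested genes they differed by 0.35 (Ins1) and 0.33 (Ins2). After scaling, the difference of Slc30a8 shrank to -0.23 at its smallest, the value with median-of-ratios scaling over genes above 0 in every library. Of 8 beta-cell markers, 4 were lower by limma (Slc2a2, Mafa, Nkx6-1 and Pdx1), as were 23.9% of all tested genes, 0 were higher, and 4 did not pass (Ins1, Ins2, G6pc2 and Iapp). After median-of-ratios scaling over the tested genes 1 of the 4, Slc2a2, was lower. The mean log2(TPM + 1) of the list was 9.56 ± 0.181 in weight-cycled islets and 9.96 ± 0.156 in obese islets (SD, n = 4; exact permutation test, two-sided, p = 0.0286, the smallest this design allows, and 0.186 adjusted over 13 marker lists), and the part of these markers in the result was not tested.

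Of the 3 transporters of the early secretory pathway, 0 were called on TPM as deposited, where 25.2% of all tested genes were called. Slc30a5 (ENSMUSG00000021629.10, chromosome 13, 100802648 to 100833427), whose product loads zinc into the Golgi and early secretory vesicles, had 9.33, 7.96, 10.4 and 9.73 TPM in weight-cycled replicates 1 to 4, against 11.4, 11.2, 9.29 and 10.4 TPM in obese replicates 1 to 4. The groups overlapped, and the difference of -0.17 (SE 0.106) lay between -0.15 and 0.18 under the other scalings. Slc30a7 (ENSMUSG00000054414.4, chromosome 3, 115938973 to 116007406), another transporter of the Golgi, was the single gene of the 10 with a difference above 0. It had 3.05, 2.06, 4.52 and 5.34 TPM in weight-cycled replicates 1 to 4, against 2.94, 1.87, 2.68 and 3.07 TPM in obese replicates 1 to 4. Weight-cycled replicates 3 and 4 were above all obese libraries, and replicates 1 and 2 lay within the obese range. The difference was 0.34 (SE 0.207), with 0.34 to 0.78 over the other scalings, and 0.18 without weight-cycled replicate 4. Of the 31-base runs of Slc30a7, 15.9% occur in transcripts of other genes, most of them in a processed pseudogene.

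Slc39a7 (ENSMUSG00000024327.16, chromosome 17, 34028269 to 34031682) encodes the transporter that releases zinc from the endoplasmic reticulum to the cytosol, and was the highest of the 3 Slc39a genes. It had 45.7, 28.7, 39.8 and 35.9 TPM in weight-cycled replicates 1 to 4, against 47.9, 56.1, 39.8 and 40.6 TPM in obese replicates 1 to 4. The groups overlapped through weight-cycled replicate 1, and the difference of -0.30 (SE 0.147) was close to the median of all genes. Under median-of-ratios scaling it was 0.08 over genes above 0 in every library and 0.03 over the tested genes. Of its 31-base runs, 76.8% occur in transcripts of another gene, Gm20427, annotated over the same region, so its level is uncertain.

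Of the remaining transporters, Slc39a6 was the one whose groups did not overlap. Slc39a6 (ENSMUSG00000024270.11, chromosome 18, 24579881 to 24603817), a zinc importer gene, had 2.61, 1.43, 2.01 and 2.16 TPM in weight-cycled replicates 1 to 4, against 3.36, 3.56, 3.07 and 2.76 TPM in obese replicates 1 to 4. Weight-cycled replicate 1, the highest of its group, and obese replicate 4, the lowest of its group, lay close together, and the difference was -0.47 (SE 0.132). Slc39a14 (ENSMUSG00000022094.15, chromosome 14, 70303469 to 70351425), which carries zinc, iron and manganese into cells, had the lowest level of the 10 genes, with 1.66, 1.03, 1.51 and 1.35 TPM in weight-cycled replicates 1 to 4 and 1.92, 2.46, 1.42 and 2.05 TPM in obese replicates 1 to 4. Those groups overlapped through obese replicate 3, and the difference was -0.31 (SE 0.134). Slc30a9 (ENSMUSG00000029221.15, chromosome 5, 67306955 to 67358443), whose product moves zinc out of mitochondria, had 6.52, 3.89, 6.41 and 4.54 TPM in weight-cycled replicates 1 to 4, against 8.21, 5.96, 7.63 and 6.76 TPM in obese replicates 1 to 4. Obese replicate 2 lay below weight-cycled replicates 1 and 3, and the difference was -0.38 (SE 0.153), turning to 0.02 with the length trend removed.

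**Figure D3:**
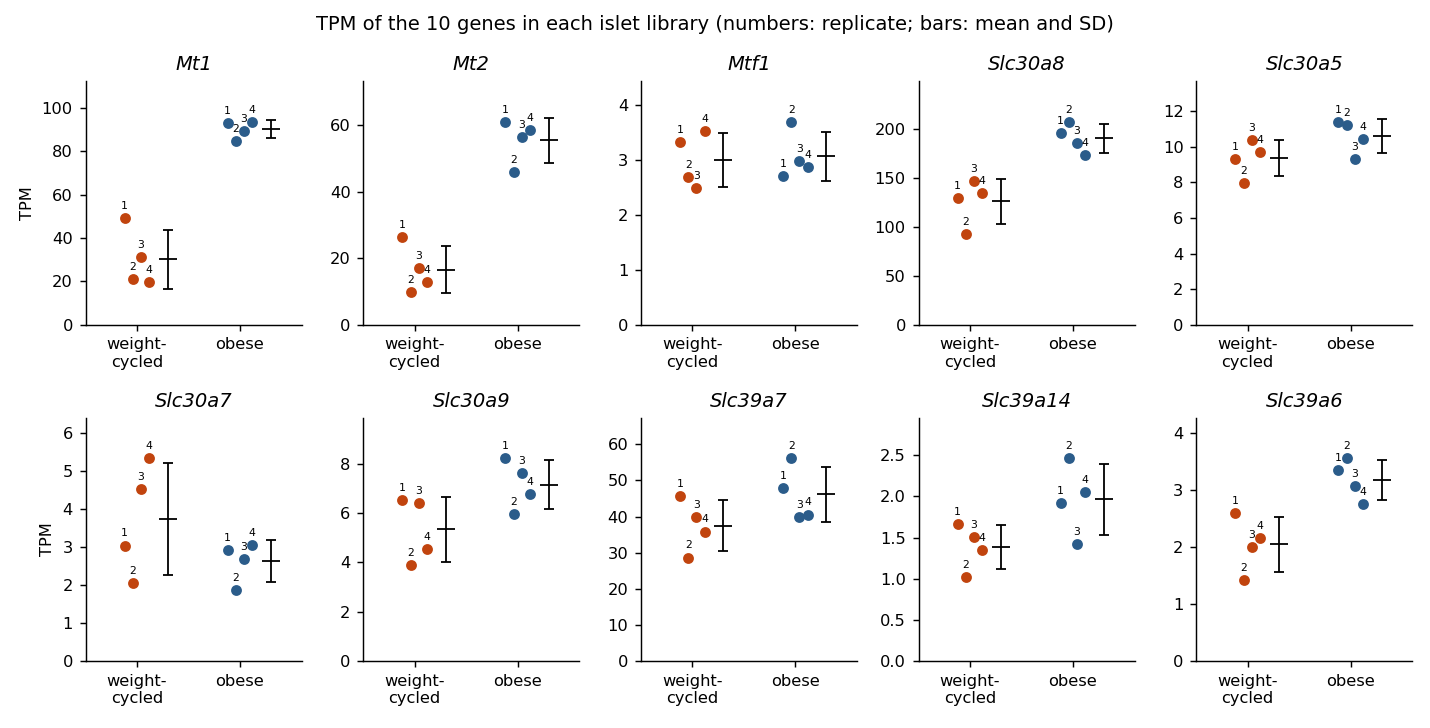
TPM (vertical axes, from 0) of the 10 genes in each library, 1 panel per gene; weight-cycled libraries are orange and obese libraries blue, numbers are replicates, and black bars give the mean and SD of 4 libraries. The groups are apart for Mt1, Mt2, Slc30a8 and Slc39a6 and overlap for the other 6 genes.

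All 10 genes had a mean above 1 TPM and entered the limma fit over 8127 genes. By that fit 4 of the 10, Mt1, Mt2, Slc30a8 and Slc39a6, were called lower at a Benjamini-Hochberg adjusted p under 0.05 and 0 higher, where 23.9% of all tested genes were called lower and 1.21% higher, 25.2% in all. The groups did not overlap, with weight-cycled libraries below obese ones, for the same 4 genes and for 21.1% of all tested genes. The median difference of the 10 was -0.34, against -0.26 for all tested genes. These counts come from the comparison that chose the genes. Relative to the median of all tested genes, Mt1 lay at -1.38, Mt2 at -1.51, Slc30a8 at -0.35 and Slc39a6 at -0.21, while Slc30a7 lay at 0.60 and Mtf1 at 0.23.

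Which of the 4 were called depended on scaling and on single libraries. Mt1 and Mt2 were called lower under all 5 other scalings, Slc30a8 under 2 and Slc39a6 under 1 of them. Slc39a6 and Slc30a8 were both called after rescaling without hormone, acinar and mitochondrial genes. That scaling kept a median difference of -0.25 and called 1347 of 8100 genes lower and 106 higher. Slc30a8 was also called after quantile normalization, where 124 of 8127 genes were lower and 173 higher. Of all tested genes 0.566% were lower and 1.24% higher after median-of-ratios scaling over the tested genes (46 and 101), and 1.53% lower and 1.78% higher with the length trend removed (124 and 145), against 1946 lower and 98 higher on TPM as deposited. Both metallothionein genes were also called lower in 7 of the 8 fits that left out 1 library, the exception being the fit without obese replicate 1, which called 0 of all 8127 genes (2714 at an unadjusted p under 0.05). Slc30a8 was called in 3 of those fits, without weight-cycled replicate 1 or 3 or obese replicate 4, and Slc39a6 in 2, without weight-cycled replicate 1 or obese replicate 4. Without weight-cycled replicate 1, 7 of the 10 genes were called lower, as were 4441 of all 8127 genes. The additional genes of the 10 were Slc30a9, Slc39a7 and Slc39a14.

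**Figure D4:**
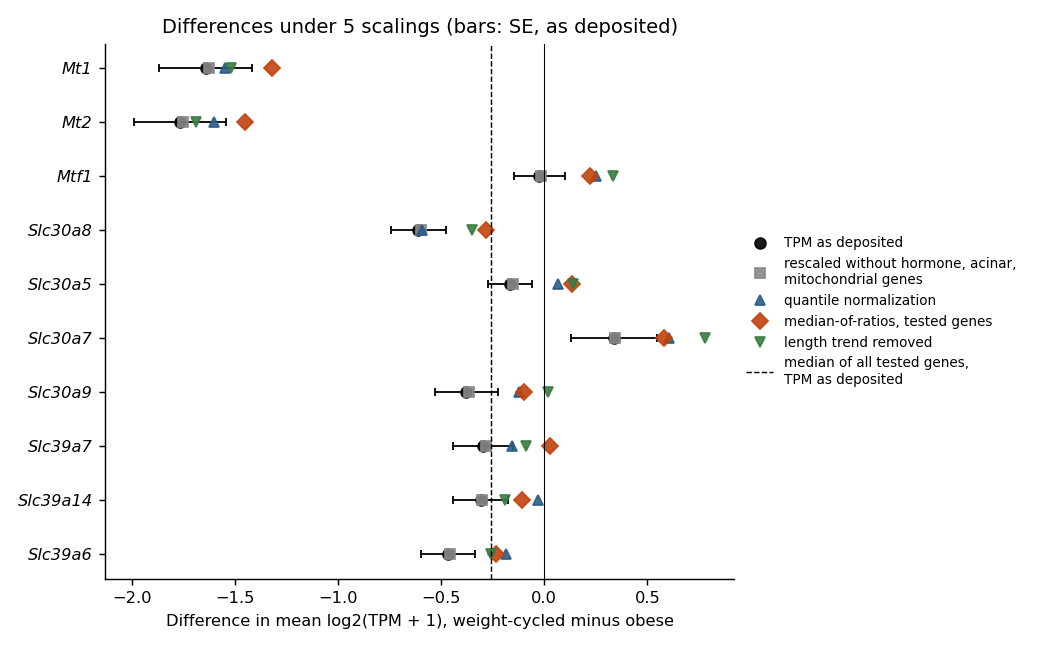
Difference in mean log2(TPM + 1), weight-cycled minus obese, of the 10 genes (horizontal axis) on TPM as deposited (black, with SE) and under 4 other scalings; the dashed line is the median of all tested genes on TPM as deposited. Mt1 and Mt2 stay at or below -1.32 under each scaling drawn, while Mtf1, Slc30a5, Slc30a9 and Slc39a7 lie on both sides of 0.

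The rest of the zinc transporter families held 17 more genes, of which 7 had a mean of at least 1 TPM and were tested. Of these 1 was higher, 0 were lower and 6 did not pass, with a median difference of -0.18 on TPM as deposited and 0.10 after median-of-ratios scaling over the tested genes. The higher one was Slc39a11 (ENSMUSG00000041654.15), a transporter gene of intracellular membranes. It had 6.93, 7.09, 5.96 and 6.51 TPM in weight-cycled replicates 1 to 4, against 4.45, 4.92, 4.51 and 3.70 TPM in obese replicates 1 to 4. Every weight-cycled library lay above every obese one, as for 1.3% of tested genes. Means were 6.62 ± 0.504 TPM in weight-cycled islets and 4.39 ± 0.505 TPM in obese islets (SD, n = 4 each), a difference of 0.50 (SE 0.105, limma adjusted p = 0.0303). It passed under all 5 other scalings, with differences of 0.51 to 0.82 and limma adjusted p between 0.0165 and 0.0312. Leaving out 1 library moved the limma adjusted p to between 0.00331 and 0.108, with the call kept only without weight-cycled replicate 1 or obese replicate 4 (differences of 0.48 and 0.44).

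Of the transporter genes that did not pass, Slc30a6, whose product pairs with that of Slc30a5, differed by 0.06, and Slc39a1, Slc39a9 and Slc39a13 by -0.18, -0.30 and -0.15 on TPM as deposited. Slc39a1 and Slc39a13 turned positive under 4 of the 5 other scalings and Slc39a9 under 1. Of the 10 untested genes, Slc30a3 and Slc39a12 were listed at 0 in all 8 libraries.

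Mt3, the metallothionein gene best known from brain, is the nearest tested gene to the Mt1 and Mt2 pair, 18.5 kb away, and its difference was of the opposite sign. It had 4.67, 5.34, 5.63 and 7.78 TPM in weight-cycled replicates 1 to 4, against 3.32, 4.58, 3.57 and 4.73 TPM in obese replicates 1 to 4. The groups overlapped through weight-cycled replicate 1, and the difference of 0.43 (SE 0.149) did not pass (limma adjusted p = 0.0512), nor under any of 5 other scalings (limma adjusted p between 0.0507 and 0.0756), while it passed without weight-cycled replicate 1 and in 4 other fits (limma adjusted p between 0.0078 and 0.144 over the fits that left out 1 library). Mt4 was listed at 0 in all 8 libraries. Within 250 kb of the pair, 8 other genes were tested, and their differences ran from -0.66 (Gnao1) to 0.43 (Mt3). Mt1 and Mt2 had the lowest differences of all tested genes, so no neighbour could lie below them.

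**Figure D5:**
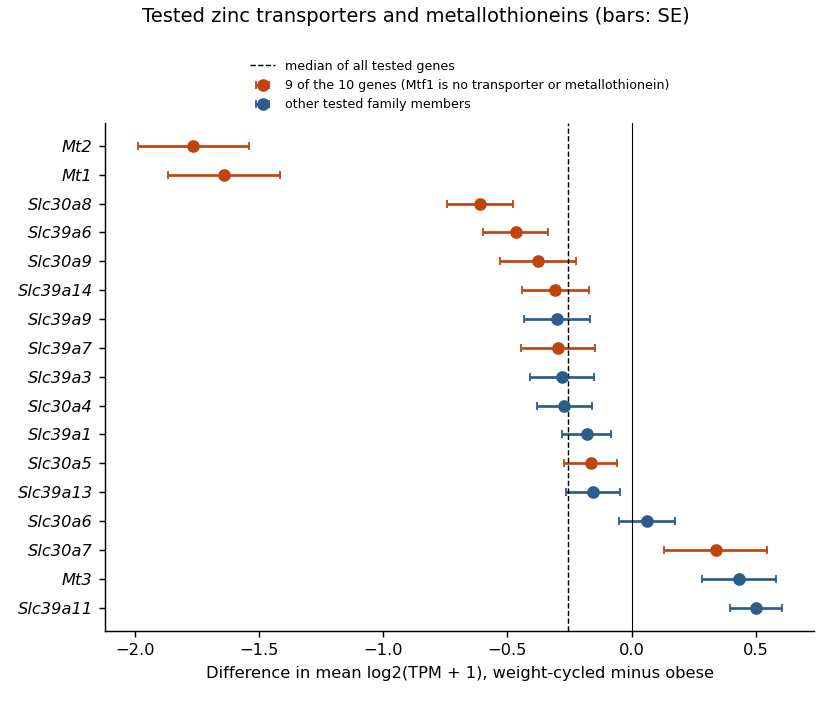
Difference in mean log2(TPM + 1), weight-cycled minus obese, with SE, on TPM as deposited for the tested zinc transporter and metallothionein genes; orange points belong to the 10 genes described, blue points to the rest of the families, and the dashed line is the median of all tested genes. Mt1 and Mt2 lie at -1.64 and -1.76, and Slc39a11 at 0.50.

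Other regulators were measured beside Mtf1, namely 5 transcription factor genes linked to metallothionein promoters and Keap1, whose product holds the Nfe2l2 protein in check. Of these 6 genes, 4 passed as lower, 0 as higher and 2 did not, where 23.9% of tested genes were lower, with a median difference of -0.53. Stat3, a cytokine-activated factor gene, was at 1.98 ± 0.705 TPM in weight-cycled islets and 4.14 ± 0.401 TPM in obese islets (SD, n = 4 each; difference -0.81, SE 0.157, limma adjusted p = 0.0270). Nfe2l2, the antioxidant regulator gene, differed by -0.52 (limma adjusted p = 0.0345), Usf2 by -0.55 (limma adjusted p = 0.0317) and Nr3c1, the glucocorticoid receptor gene, by -0.59 (limma adjusted p = 0.0451). Under the 5 other scalings Stat3 was called in 4, Usf2 in 2, Nfe2l2 in 1 and Nr3c1 in 0. The libraries of the 2 groups overlapped for Nr3c1. Usf1 (-0.16) and Keap1 (-0.32) did not pass. Among 6 tested genes that glucocorticoids induce, 4 were lower and 0 higher, namely Fkbp5 at -0.63, Per1 at -0.60, Klf9 at -0.55 and Tsc22d3 at -0.36. Each of these 4 was called under 1 of the 5 other scalings.

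Genes of other metals were mixed. Of 13 tested iron genes 7 were lower, where 23.9% of tested genes were, and 0 higher, with Ftl1 and Fth1, the ferritin chains, at -0.69 and -0.55, Tfrc, the transferrin receptor gene, at -0.60 and Pcbp2, an iron chaperone gene, at -0.48. Ferritin genes have many pseudogenes, so the levels of Ftl1 and Fth1 are uncertain. Of 8 tested copper genes 1 was lower, Sco2 at -0.33, and 7 did not pass. Across these 4 lists 16 genes were lower. After median-of-ratios scaling over the tested genes 2 of them were lower, Stat3 and Tfrc, and with the length trend removed 5 were lower, where 0.566% and 1.53% of all genes were. The count of 16 became 0 without weight-cycled replicate 2 or 4 or obese replicate 1, 2 or 3. It became 1 without weight-cycled replicate 3, 15 without obese replicate 4 and 21 without weight-cycled replicate 1. Of all 8127 genes, 1681 were lower without obese replicate 4 and 4441 without weight-cycled replicate 1.

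The genes whose profile over the 8 libraries was closest to that of Mt1 and Mt2 were, in order, Gstm1, Atf5, Apoe, Robo2, Epb41l3 and Chd3. Their root mean square differences from the mean centred profile of the pair ran from 0.284 (Gstm1) to 0.398 (Chd3) on the log2 scale, against 0.146 between Mt1 and Mt2 themselves. Gstm1, a glutathione transferase gene, had 7.45, 3.37, 5.32 and 3.17 TPM in weight-cycled replicates 1 to 4, against 10.7 to 13.8 TPM in obese libraries. Like Mt1 and every other gene of this list, it was highest among weight-cycled libraries in replicate 1. It has close paralogs, so its level is uncertain. The measure takes in the difference between the groups for which Mt1 and Mt2 were chosen, so the list describes genes that share it. Variation within a group also enters the measure and was not separated from that difference.

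Cells other than beta cells also hold metallothioneins, and their markers were read beside these results. The 7 endothelial markers summed to between 28.3 and 57.9 TPM in weight-cycled libraries and between 50.7 and 83.1 TPM in obese libraries, with 2 of 7, Kdr and Esm1, lower by limma where 23.9% of tested genes were. Under the 5 other scalings Kdr was called in 0 and Esm1 in 4. The 8 macrophage markers summed to between 41.5 and 51.8 TPM in weight-cycled libraries and between 53.8 and 67.5 TPM in obese libraries, with 3 of the 5 tested markers, Lyz2, Tyrobp and Ctss, lower on TPM as deposited and 0 after median-of-ratios scaling, quantile normalization or removal of the length trend. No library had a sum of 0 for either list, and their part in the fall of Mt1 and Mt2 was not tested. The 10 acinar markers, of which 8 were tested and 0 called, summed to between 2775 and 6738 TPM in weight-cycled libraries and between 2281 and 4230 TPM in obese libraries. With the acinar score as a covariate the differences were -1.70 for Mt1 and -1.82 for Mt2. Stromal markers summed to at most 15.4 TPM in weight-cycled and 15.2 TPM in obese libraries, and Adipoq, the defining adipocyte marker, was listed at 0 in all. The lymphocyte markers summed to at most 1.09 TPM in weight-cycled libraries and 2.33 TPM in obese libraries. None of the 13 list scores passed an exact permutation test after adjustment (smallest adjusted p = 0.186, two-sided). The beta-cell and lymphocyte lists reached the smallest unadjusted p this permutation test allows here, 0.0286. A score at that value passes after adjustment over 13 lists only if many other lists reach it too. The test therefore cannot show that cell composition was equal between the groups.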

How the data were processed

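Polyadenylated RNA of collagenase-freed, hand-picked islets was sequenced in 8 libraries, per the labels' protocols. The authors deposited 1 TPM value for each gene and library. The submitters' processing notes name Salmon 1.5.2 and mm10, while annotation, strand setting and the step to genes are not stated in the sources used. TPM keep no depth, so no counting interval is given, and count tests were not run. Of the 35596 IDs, 35527 (99.8%) had a symbol. Coordinates and transcript lengths came from GENCODE M21 on GRCm38 (mm10).

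Genes with a mean of at least 1 TPM were fitted with limma 3.58.1 in R 4.3.3 (trended variance, no covariate) on log2(TPM + 1). Tests were two-sided, and p-values were adjusted over all 8127 by the Benjamini-Hochberg method. Calls use an adjusted p under 0.05. The fit was tested on simulated data with independent noise for each gene and no shift of whole libraries. That test therefore does not cover the shift of most genes seen here. The 10 genes and all lists were chosen with earlier results of these data known. Beyond the 10, genes were named by rule. These were members of the zinc, metallothionein and regulator lists that passed and up to 4 more of the highest mean TPM. Up to 4 that passed were named of each other list. The 6 profiles nearest to Mt1 and Mt2 were taken with predicted gene models left out. Genes near the pair, Slc30a1, and the untested genes were chosen after their values were seen. Alternatives were pseudocounts of 0.1 and 5, other filters, 5 scalings or corrections (median-of-ratios over the tested genes was added after the data were seen), variance options, an acinar covariate, the replicate number as a block, and leaving out each library.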

Additional observations from a re-analysis of the deposited data

Results flagged for a closer look

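Slc39a13, a zinc transporter gene of the secretory pathway that did not pass the test, stood out in 1 library. Weight-cycled replicate 2 held 2.78 TPM of it, and the other 3 weight-cycled libraries between 3.42 and 3.50 TPM, a gap large against the group's range by Dixon's ratio. Of 62 groups of 4 libraries examined this way 1 was so far out, where chance gives about 3.1.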

How the results depend on the processing

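The differences of Mt1 and Mt2 kept their sign and moved by less than 1 SD between replicates under every alternative, from -1.90 to -1.27 for Mt1 and from -2.01 to -1.40 for Mt2. Counts of calls moved widely, and the cause was not tested. With every gene kept whatever its level, limma passed 0 among 19482 (5686 had an unadjusted p under 0.05), and thus 0 of the 10 genes, 0 of the other zinc transporters and 0 of the 4 further lists. Leaving out 1 library gave 0 to 270 genes higher and 0 to 4441 lower, 0 to 7 of the 10 genes lower, 0 to 3 other zinc transporters lower and 0 to 1 higher, and 0 to 21 genes of the 4 lists lower. A minimum mean of 5 TPM gave 1001 genes lower and 7 in the lists. That filter also took genes such as Stat3 and Tfrc (means of 3.06 and 2.55 TPM) out of the test. Its counts therefore cover fewer genes and are not a loss of calls among the same genes. Median-of-ratios scaling gave 24 lower over genes above 0 in every library and 46 over the tested genes, with 2 of the 10 genes and 0 and 2 in the lists. Quantile normalization gave 173 higher, 124 lower and 4 in the lists, and removal of the length trend 124 lower, with 2 of the 10 genes and 5 in the lists. Array weights gave 296 higher and 4499 lower, with 1 of the 10 genes (Slc30a7) higher and 1 other zinc transporter lower. The acinar covariate gave 228 higher and 4058 lower, with 7 of the 10 genes and 3 other zinc transporters lower.

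The replicate number as a block gave 149 higher and 2754 lower genes, with 5 of the 10 genes lower, the fifth being Slc30a9. For same-numbered libraries, correlations of deviations from group means across genes were 0.210, -0.276, -0.0522 and 0.231 for replicates 1 to 4. The highest correlations of those weight-cycled replicates with an obese library of another number were 0.309, 0.227, 0.116 and 0.243. With 4 libraries per group these values cannot exclude that same-numbered libraries were paired, and the labels do not say.

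Some genes that did not pass changed sign with scaling. Median-of-ratios scaling over genes above 0 in every library put Slc39a1 at 0.14, Slc39a9 at 0.017, Slc39a13 at 0.14, Usf1 at 0.17 and Keap1 at 0.0027, and over the tested genes Slc39a1 at 0.10, Slc39a13 at 0.10 and Usf1 at 0.13. Quantile normalization put Slc39a1 at 0.077, Slc39a13 at 0.12 and Usf1 at 0.087, and length correction Slc39a1 at 0.10, Slc39a13 at 0.060 and Usf1 at 0.090.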
